A study of Mus musculus with 41 samples.

Results

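The genes described here are those of the voltage-gated sodium and calcium channels. They were taken as every named gene of the count tables whose symbol begins with Cacna or Cacnb, or with Scn followed by a digit. This gave 32 genes of 32531 named genes. They comprise 10 pore-forming and 4 beta subunit genes of sodium channels, 10 pore-forming genes of calcium channels, and 4 alpha2delta and 4 beta subunit genes of calcium channels.

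Voltage-gated sodium channels open on depolarization and carry the upstroke of the action potential. Each has 1 large alpha subunit that forms the pore, and beta subunits, single-pass membrane proteins that set the gating and the placement of the channel. Voltage-gated calcium channels turn depolarization into calcium entry. Their pore-forming alpha1 subunits fall into L-type channels of dendrites and cell bodies, which signal to the nucleus, P/Q, N and R types, which drive transmitter release, and T types, which open near rest. The intracellular beta and the extracellular alpha2delta subunits carry the pore to the membrane. In medium spiny neurons, the projection neurons of the striatum, dopamine acting on D1 receptors is known to modulate both sodium and L-type calcium currents.

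RNA on tagged ribosomes was sequenced from adult mice of the transgenic line Drd1-EGFP/Rpl10a (CP73), in which cells that use the Drd1 promoter carry ribosomal protein L10a fused to EGFP. The tissue was the dorsal striatum. Polysomes were pulled down with antibodies against EGFP, a method called TRAP. All animals, controls included, carried the transgene on a background of FVB/N-Swiss Webster crossed to C57BL/6 for at least 9 generations, and all had a self-administration history in a long-access intravenous study. About 1 month after self-administration there were 4 libraries from the cocaine group labelled escalating, 11 from the cocaine group labelled nonescalating and 5 from the saline control group. At 24 h there were 5 escalating, 9 nonescalating and 5 saline libraries. Total RNA of saline animals, labelled input and with no time given, made up 2 more libraries, so that 39 of the 41 were purified. Both nonescalating groups number their replicates in 2 series, called runs here, with 6 and 5 libraries at 1 month and 6 and 3 at 24 h. The labels of the other purified libraries call the self-administration extended. Escalating libraries and the second run of nonescalating libraries at 1 month lack that word, so any difference in the sessions cannot be told apart from those groups. Whether a library came from a single animal is not stated, so p-values measure the spread between these libraries, which may be in part technical.

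Between 5394332 and 23925655 counts per library fell on named genes (median 11340272). The 32 channel genes took 0.497% to 0.688% of the counts of the purified libraries and 0.576% to 0.596% of those of the inputs. The purification was checked in the saline libraries. Drd1 was higher in purified RNA than in input (log2 fold 0.84 ± 0.22 (SE), edgeR adjusted p = 0.0444), and Drd2, the receptor gene of the other class of medium spiny neurons, was lower (−3.00 ± 0.34, adjusted p = 0.000268). Saline replicate 5 at 24 h stood apart. It had the fewest counts, and 42.3% of its reads assigned to a gene, to no feature or to several features fell on no feature, against at most 30.75% in any other purified library. Of the 22 well-covered channel genes, 3 were above and 9 below the range of the other 38 purified libraries in it, and the library with the next most extremes had 5. Its summed markers of endothelial cells reached 1090 counts per 1e+06 counts on named genes (CPM) and those of astrocytes 1039 CPM, against at most 207.7 and 366 CPM in the other saline libraries at 24 h. In the other purified groups endothelial sums reached 934.8 CPM (nonescalating, 1 month) and astrocyte sums 662.5 CPM (escalating, 24 h), so high endothelial sums were not particular to it. Values without this library are therefore given beside the results it bears on.

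Of the 32 genes, 22 had a mean of at least 10 CPM over the purified libraries, the lowest being Cacna1d at 28.6 CPM. The other 10 had a mean of at most 3.24 CPM. All 32 had at least 1 count in some library, and 24 had a count in every purified library. The skeletal muscle genes Scn4a and Cacna1s, the retinal Cacna1f and the sensory neuron gene Scn10a were counted in 3, 2, 4 and 10 purified libraries, with 0.744 CPM the highest value of Scn4a and 1.46 CPM that of Scn10a. Scn7a, an atypical channel of glia and sensory neurons, had counts in 11 purified libraries and reached 6.12 CPM in saline replicate 3 at 24 h alone. A count of 3, the least taken as a signal, corresponds to between 0.125 and 0.556 CPM depending on the library, so absence was not measurable below that level, and this floor covers counting error only. The sensory neuron gene Scn9a, the T-type gene Cacna1g and the retinal alpha2delta gene Cacna2d4 had means of 3.09, 3.24 and 2.02 CPM.

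To compare levels between genes, CPM were divided by exon length in kilobases. The sodium channel beta genes held the highest levels. Scn4b averaged 149.9 ± 24.1 CPM per kb (SD, n = 39 purified libraries) and Scn2b 124.8 ± 26.3 CPM per kb, with ranges of 101.7 to 219 and of 73.2 to 193.3. These ranges overlapped each other. Scn4b encodes the beta4 subunit, known for resurgent sodium current and abundant in the striatum. Scn2b encodes the beta2 subunit, which like beta4 links to the pore by a disulfide bond. Scn3b, at 33.6 ± 6.08 CPM per kb, stayed below the lowest Scn4b value in every purified library.

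Among the sodium channel pores, Scn2a1 (Scn2a in the annotation, Nav1.2, an early channel of unmyelinated axons) averaged 60.8 ± 6.05 CPM per kb, and Scn8a (Nav1.6, the channel of the mature axon initial segment) 47.6 ± 8.92 CPM per kb. Scn1a (Nav1.1, prominent in fast-spiking interneurons) averaged 14.46 ± 2.08 and Scn3a (Nav1.3, highest before birth) 13.03 ± 2.95 CPM per kb, less than 1 SD apart. As shares of the summed pore level, Scn2a1 took a mean of 44.7%, Scn8a 34.6%, Scn1a 10.6% and Scn3a 9.47% over the 39 purified libraries. In the inputs Scn2a1 took 38.96%, Scn8a 25.5%, Scn1a 20.2% and Scn3a 13.4%. The share of Scn1a was 7.26% to 14.8% in the purified libraries and 19.4% and 21.1% in the inputs, with no overlap. Scn1a, Scn2a1, Scn3a, Scn7a and Scn9a lie in 1 cluster on chromosome 2, and of these only Scn1a, Scn2a1 and Scn3a were well covered. Scn2b and Scn4b are neighbours on chromosome 9.

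Among the calcium channel pores, Cacna1e, which encodes the R-type pore Cav2.3, stood highest at 58.7 ± 7.62 CPM per kb. Within the presynaptic types it took a mean of 67.5% of the summed level over the purified libraries, against 16.8% for the P/Q-type gene Cacna1a and 15.7% for the N-type gene Cacna1b. The L-type gene Cacna1c (Cav1.2) averaged 15.04 ± 4.82 CPM per kb and Cacna1d (Cav1.3, which opens at lower voltages) 3.19 ± 1.10 CPM per kb. Cacna1c took a mean of 81.2% of the L-type level in purified RNA and 66.4% in input, and Cacna1d 18.8% and 33.5%. Both inputs lay within the range of the purified libraries. For Cacna1c that range was 58.8% to 99.0%, with inputs at 63.9% and 68.8%. For Cacna1d it was 0.96% to 41.2%, with inputs at 31.0% and 35.9%. The T-type genes Cacna1h and Cacna1i were close, at 10.4 ± 5.10 and 9.46 ± 2.53 CPM per kb, with Cacna1g far below at 0.381 ± 0.318 CPM per kb.

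The calcium channel beta genes lay close together. Cacnb4, Cacnb1, Cacnb2 and Cacnb3 averaged 58.3 ± 10.2, 50.2 ± 9.69, 49.9 ± 8.92 and 46.7 ± 8.27 CPM per kb over the purified libraries, each neighbour within 1 SD of the next. Cacnb4 took 28.4% of the summed beta level in purified RNA and 39.3% in input, whereas Cacnb1 took 24.4% in purified RNA and 17.03% in input. Among the alpha2delta genes, of which Cacna2d1 and Cacna2d2 encode the binding sites of gabapentin, Cacna2d3 led with 49.0 ± 8.66 CPM per kb, before Cacna2d2 with 23.0 ± 3.87 and Cacna2d1 with 15.03 ± 2.92, and Cacna2d4 was far below at 0.348 ± 0.286 CPM per kb. Summed over a class, the sodium beta genes reached means of 343.3 to 364.2 CPM per kb in the 6 purified groups against 257.5 in the inputs. The sodium pores reached 127.8 to 154.5 against 148.7 in the inputs, and the alpha2delta genes 83.8 to 96.6 against 105.6.

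**Figure D1:**
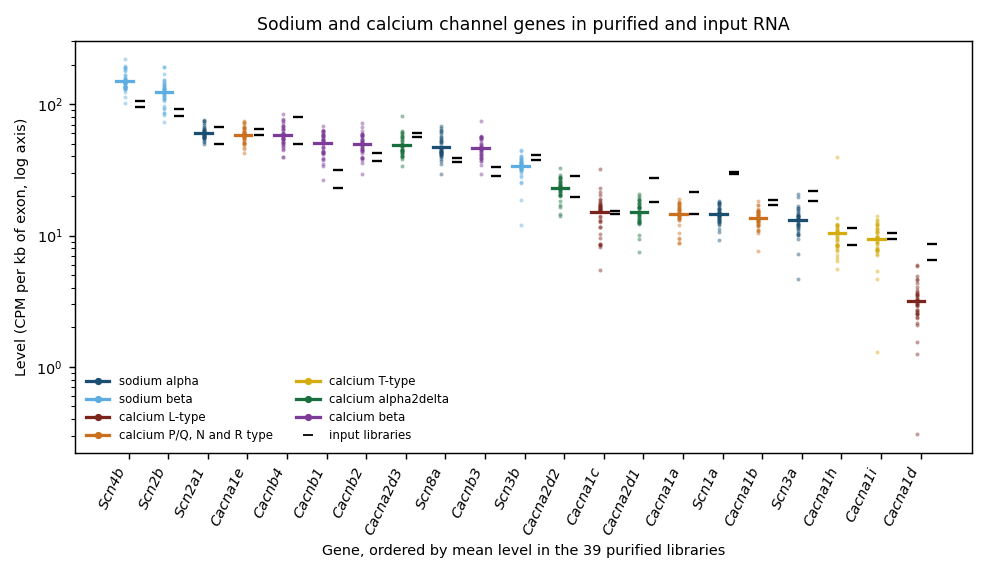
Level of 21 well-covered channel genes in CPM per kilobase of exon (log axis), by class. Dots are the 39 purified libraries, bars their mean and black dashes the 2 inputs. Scn4b and Scn2b lead, and Cacna1d is lowest at 3.19 CPM per kb.

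The first comparison asked how RNA on the tagged ribosomes of Drd1 cells differs from total striatal RNA, using the 10 purified saline libraries and the 2 saline inputs. Cacnb1, Scn4b and Cacnb3 were higher in purified RNA and Scn1a was lower, by 0.66 to 0.98 on the log2 scale. These are 4 of the 27 channel genes tested, 3 higher and 1 lower, against 4.65% of all 15305 genes called, 1.84% higher and 2.81% lower. DESeq2 called the same 4 genes, and 938 of all 15305 genes. The median log2 fold of the 27 genes was 0.0036, against −0.014 over all genes, and 8 of the 27 had an unadjusted p under 0.05, against 18.3% of all genes. In bulk RNA, fewer cells of a type and less RNA per cell cannot be told apart.

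Cacnb1 (chr11:98001508-98023034, minus strand, GRCm38), which encodes the calcium channel beta1 subunit of muscle and brain, had 218.2, 205.7, 189.2, 253.7 and 191.2 CPM in the purified saline libraries at 1 month. It had 172.1, 173.6, 150.7, 158.1 and 214.8 CPM in those at 24 h, against 92.92 and 127.4 CPM in the inputs. Every purified saline library was above both inputs. The log2 fold was 0.98 ± 0.21 (SE) with an edgeR adjusted p of 0.0186.

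Cacnb3 (chr15:98630840-98644529, plus strand), which encodes the beta3 subunit, had 141.1, 167.2, 123, 136.1 and 121.8 CPM in the purified saline libraries at 1 month. It had 147, 133.7, 128.4, 135.5 and 166.6 CPM in those at 24 h, against 84.73 and 98.69 CPM in the inputs. The lowest purified saline library was again above both inputs. Its log2 fold of 0.79 ± 0.20 had an edgeR adjusted p of 0.0387. This call was the least firm of the 4: it was lost in 13 of 19 other settings, among them DESeq2's size factors (adjusted p = 0.0549), with adjusted p from 0.00409 to 0.441 over all settings. The other beta genes did not pass, Cacnb2 with a log2 fold of 0.53 ± 0.25 (adjusted p = 0.29) and Cacnb4 with 0.0036 ± 0.22 (adjusted p = 0.996).

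The upstream sequences of the 2 calcium beta genes that rose, chosen after their values were seen, are shown with GGGCGG, the letters of the GC box bound by Sp1 family factors, marked in them. They are taken from RefSeq promoter windows on GRCm38.p6, with GGGCGG and its reverse complement in capitals and without bases in GENCODE exons. The Cacnb1 sequence lies at chr11:98022635-98022877 on the minus strand, and that of Cacnb3 at chr15:98634568-98634766 on the plus strand.
Cacnb1: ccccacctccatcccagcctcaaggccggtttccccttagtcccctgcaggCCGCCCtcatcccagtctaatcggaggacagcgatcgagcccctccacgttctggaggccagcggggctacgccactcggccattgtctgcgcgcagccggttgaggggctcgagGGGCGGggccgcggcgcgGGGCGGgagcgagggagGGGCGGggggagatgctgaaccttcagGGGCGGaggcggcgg
Cacnb3: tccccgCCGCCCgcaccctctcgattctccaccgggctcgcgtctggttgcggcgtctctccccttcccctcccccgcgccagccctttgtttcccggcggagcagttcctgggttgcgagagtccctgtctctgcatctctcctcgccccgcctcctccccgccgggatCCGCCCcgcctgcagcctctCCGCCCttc
The Cacnb1 stretch of 243 bases holds 5 matches and the Cacnb3 stretch of 199 bases holds 3. Both lie within the annotated span of their gene, and the window before the other RefSeq start of each gene holds 0. Several matches were not particular to these 2 genes: a window of Cacnb4, whose log2 fold was 0.0036, holds 6, as do windows of Cacna1c and Cacna2d1, and a window of Cacna1d holds 5. Windows of 250 bases before the start were found for 24 of the 32 channel genes, 34 windows in all, of which 38.2% hold GGGCGG on either strand against 32.7% of all 32851 windows. TATAAA was in 5.88% of the channel gene windows against 12.4% of all, CCAAT in 23.5% against 33.8%, TGACG in 17.6% against 17.8% and CACGTG in 0% against 6.02%. The channel windows had a median GC content of 56%, and all windows 52.4%. A match describes letters only and is no evidence of binding.

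Scn4b (chr9:45138395-45154152, plus strand) had 675.3, 649.9, 669.7, 717.9 and 738 CPM in the purified saline libraries at 1 month. It had 767.8, 826.2, 650, 646 and 682.3 CPM in those at 24 h, against 528.1 and 477.8 CPM in the inputs. No purified saline library was as low as an input. Its log2 fold over input was 0.66 ± 0.15, with an edgeR adjusted p of 0.0243. Scn2b next to it had 449.3 to 885.9 CPM in the purified saline libraries and 375.6 and 426.5 CPM in the inputs, and a larger log2 fold of 0.86 ± 0.26 that did not pass (adjusted p = 0.0696).

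Scn1a (chr2:66270778-66440840, minus strand) fell to 120.5, 90.06, 108.1, 112.9 and 139.3 CPM in the purified saline libraries at 1 month. It had 150, 126.4, 152.5, 126.8 and 125.5 CPM in those at 24 h, against 260.1 and 251.7 CPM in the inputs. Every purified saline library was below both inputs. The log2 fold was −0.86 ± 0.17 with an edgeR adjusted p of 0.0131, the lowest of the channel genes. Scn9a had 0.382 to 9.29 CPM in purified saline RNA and 16.1 and 27.1 CPM in the inputs, also with no overlap, but its log2 fold of −2.80 ± 0.86 did not pass (adjusted p = 0.0799).

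**Figure D2:**
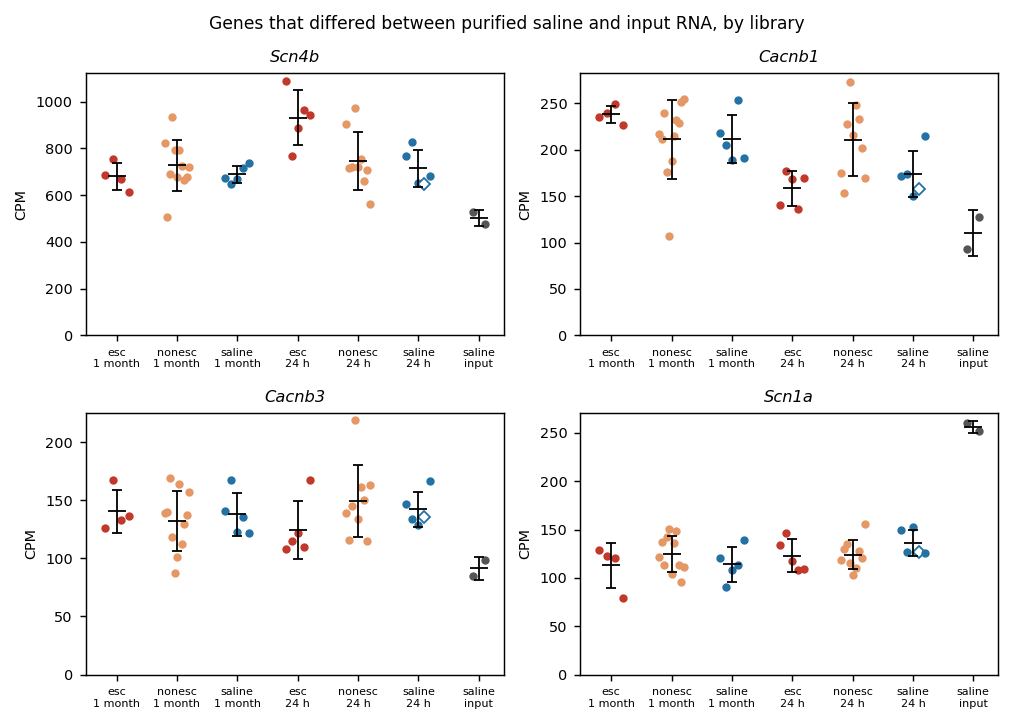
CPM of Scn4b, Cacnb1, Cacnb3 and Scn1a in every library of the 6 purified groups and the inputs, with bars for the mean ± SD of each group. The open diamond is saline replicate 5 at 24 h. For Scn1a every saline dot lies at or below 152.5 CPM and the inputs at 260.1 and 251.7 CPM.

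Markers of other cells moved with the same contrast. The 10 interneuron markers summed to 16.9 to 155.4 CPM in purified saline libraries and 248 to 290.4 CPM in the inputs, with 3 of the 9 tested lower, and Pvalb, Npy, Slc5a7 and Vip were at 0 in some purified saline libraries at both times. The 6 markers of D2 medium spiny neurons summed to 145.7 to 270.7 CPM against 1409 to 1516 CPM in the inputs, with 5 of 6 lower. The 6 astrocyte markers summed to 138.6 to 1039 against 2001 to 2300 CPM, with 3 of 6 lower, and the 6 oligodendrocyte markers to 94.8 to 512.9 against 1806 to 1968 CPM, with 4 of 6 lower. The 5 markers of D1 neurons summed to 1104 to 1478 CPM in purified saline libraries against 611.9 to 732.3 CPM in the inputs, with 3 of 5 higher. Markers of endothelial cells summed to 4.38 to 1090 CPM in purified saline libraries against 18.1 and 18.3 CPM in the inputs, and those of cortical neurons to 35.5 to 320.3 CPM against 31.2 and 204.8 CPM, with none of the 4 and 6 called. The part of these markers in the channel results was not tested.

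Without saline replicate 5 at 24 h, 10 channel genes passed, against 15% of all genes. Cacnb1, Cacnb3, Scn4b and Scn1a were among them. The sodium channel genes Scn8a (0.61 ± 0.14, edgeR adjusted p = 0.00843) and Scn2b (0.79 ± 0.21, 0.0193) and the calcium channel gene Cacnb2 (0.61 ± 0.17, 0.0253) were then higher in purified RNA. Cacna1d (−1.04 ± 0.32, 0.038) and Scn9a (−2.68 ± 0.76, 0.0258) were then lower. The purified saline libraries at 1 month alone gave 11 calls against 19.4% of all genes. Those at 24 h alone gave 0, where 0.0823% of all 14576 genes were called. Leaving out either input leaves a lone input with no measured spread, so the calls rest on both inputs and only folds are given. Without input replicate 1 and without input replicate 2 the log2 folds were 0.80 and 1.19 for Cacnb1 and 0.71 and 0.87 for Cacnb3. They were 0.76 and 0.56 for Scn4b and −0.81 and −0.92 for Scn1a.

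**Figure D3:**
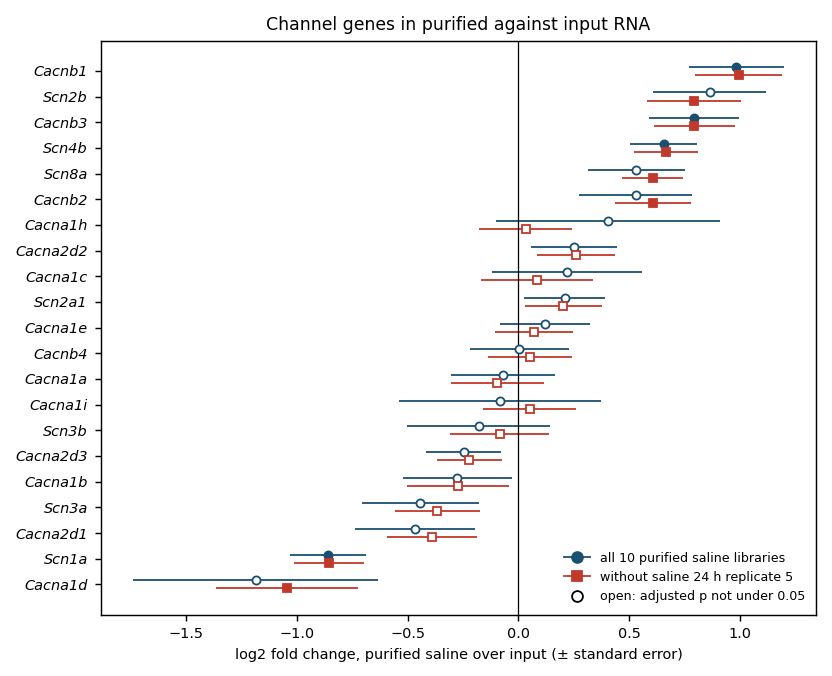
Log2 fold (± SE) of purified saline over input RNA for 21 well-covered channel genes. Blue circles use all 10 purified saline libraries and red squares leave out saline replicate 5 at 24 h, and filled symbols have an adjusted p under 0.05. Cacnb1 has the highest blue value at 0.98.

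Of 40 genes listed as channel partners, 39 were in the tables and 37 were tested for purified against input RNA. Of these 5 were higher and 2 lower, beside the 4.65% of all genes called, 1.84% higher and 2.81% lower. Akap5, which anchors kinases and calcineurin at L-type channels, had 1112 to 1340 CPM in purified saline libraries and 864.8 and 795.6 CPM in the inputs (log2 fold 0.73 ± 0.14, edgeR adjusted p = 0.0117). Nedd4l, a ubiquitin ligase that acts on sodium channels, had a log2 fold of 0.75 ± 0.19 (adjusted p = 0.0396). The calmodulin genes Calm3 and Calm2 (0.92 ± 0.20 and 1.18 ± 0.32, adjusted p = 0.0186 and 0.0476) and Snap25, a vesicle fusion protein that binds presynaptic channels (1.23 ± 0.32, adjusted p = 0.0401), were the other genes that rose. Ryr3 and Ryr1, which encode calcium release channels of the endoplasmic reticulum, fell. Ryr3 had 147.6 to 227.6 CPM in purified saline libraries against 475.5 and 663.2 CPM in the inputs (−1.41 ± 0.18, adjusted p = 0.00062), and the log2 fold of Ryr1 was −1.53 ± 0.36 (adjusted p = 0.0258). These 7 calls rest on the inputs: without input replicate 1 only Ryr3 passed, and without input replicate 2 none did, where the calls over all genes numbered 43 and 49, against 712 with both inputs. Without saline replicate 5 at 24 h, 11 partners passed, 7 higher and 4 lower, against 15% of all genes, and the 7 named here were among them.

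At 24 h after self-administration, no channel gene passed the test between cocaine and saline. The 3 comparisons with saline share the same 5 saline libraries. Of 26 genes tested, 0 were called for escalating against saline (background 0% of 13437 genes), 0 for nonescalating against saline (0%), 0 for all cocaine, the mean of both cocaine groups, against saline (0.0447%) and 0 for escalating against nonescalating (0%). At an unadjusted p under 0.05 these counts were 5, 5, 4 and 4, where all genes gave 10.7%, 11.9%, 13.7% and 4%. DESeq2 called 0, 0, 1 and 0, the call being Cacna2d2, where over all 13437 genes it called 47, 117, 171 and 0. The median log2 fold of the 26 genes was 0.03 for escalating against saline, where all genes had −0.04, and −0.02 for nonescalating against saline, where all genes had −0.01.

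Cacna2d2 (chr9:107399612-107529343, plus strand), the alpha2delta2 gene, had the lowest p of the channel genes. It had 118.5, 134.5, 118.4, 124.6 and 82.43 CPM in the escalating libraries at 24 h and 84.4 to 158 CPM, with a median of 127.6, in the nonescalating libraries. In saline libraries it had 159.4, 162.7, 190.8, 151.5 and 159.6 CPM, the value of 151.5 being replicate 5. All escalating libraries were below all saline libraries. The nonescalating range reached into that of saline through replicate 5 only, since the next lowest saline value was 159.4 CPM. The log2 fold was −0.59 ± 0.18 for escalating (edgeR adjusted p = 0.351), −0.51 ± 0.15 for nonescalating (adjusted p = 0.208) and −0.55 ± 0.14 for all cocaine (adjusted p = 0.115). Within the nonescalating runs it was −0.42 ± 0.16 in the first and −0.71 ± 0.21 in the second. DESeq2 gave all cocaine an adjusted p of 0.0253, and edgeR with the 6 purified groups in 1 fit gave −0.54 ± 0.12 with an adjusted p of 0.00866. For all cocaine that fit called 479 of all 15190 genes. Without saline replicate 5 the all cocaine fold was −0.55 ± 0.15 (adjusted p = 0.19), and over all alternatives its adjusted p was 0.00866 to 0.468.

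Cacna1h (chr17:25374285-25433783, minus strand), a T-type gene, had 69.03, 81.49, 97.83, 63.17 and 68 CPM in escalating libraries and 55.4 to 98.96 CPM, with a median of 78.9, in nonescalating libraries at 24 h. In saline it had 65.74, 70.2, 87.45, 324.8 and 86.66 CPM, the value of 324.8 being replicate 5. The groups overlapped apart from that library. The log2 fold for all cocaine was −0.83 ± 0.28 (edgeR adjusted p = 0.182) with it and −0.06 ± 0.16 (adjusted p = 0.932) without it. In the fit of 6 groups, which includes that library, Cacna1h passed with −0.79 ± 0.22 (adjusted p = 0.0413), as did 479 of all 15190 genes.

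The L-type gene Cacna1c (chr6:118587240-119196418, minus strand) had 263.8, 257.9, 349.5, 210.1 and 271.8 CPM in escalating libraries and 129 to 309.5 CPM, with a median of 236.3, in nonescalating libraries. In saline it had 245.8, 177, 326.6, 485.9 and 246.2 CPM, again highest in replicate 5, and all groups overlapped. The nonescalating log2 fold was −0.56 ± 0.22 (edgeR adjusted p = 0.324), and −0.27 ± 0.20 without that library. Cacna2d4, at 2.02 CPM one of the low genes, had a nonescalating log2 fold of −2.09 ± 0.83 (adjusted p = 0.325), and −2.40 ± 0.77 (adjusted p = 0.248) without that library.

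Cacna2d3, the most abundant alpha2delta gene, had 226.5, 216.9, 248.1, 176.2 and 318.4 CPM in escalating libraries against 177.5, 159.4, 171.8, 133.1 and 171.7 CPM in saline. Only the escalating library at 176.2 lay within the saline range. The log2 fold was 0.47 ± 0.16 (edgeR adjusted p = 0.354) and 0.43 ± 0.16 without saline replicate 5. Scn2b had 437, 598, 399.9, 494.9 and 431.4 CPM in escalating libraries against 507.7, 449.3, 785.2, 885.9 and 684.7 CPM in saline, where 885.9 is replicate 5. The groups overlapped, and the log2 fold was −0.57 ± 0.23 (edgeR adjusted p = 0.404) with that library and −0.41 ± 0.22 (unadjusted p = 0.0761, adjusted p = 0.572) without it.

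Scn8a (chr15:100869858-101045938, plus strand) had 846.4, 638, 666.4, 693.7 and 659.1 CPM in escalating libraries, and 468.4 to 730.1 CPM, with a median of 536.3, in nonescalating libraries. In saline it had 767, 651.9, 806.1, 363.2 and 695.2 CPM, lowest in replicate 5. The nonescalating log2 fold against saline was −0.31 ± 0.14 (edgeR adjusted p = 0.394) with that library and −0.45 ± 0.12 (adjusted p = 0.202) without it. Cacnb2 similarly gave −0.33 ± 0.16 with it and −0.47 ± 0.14 (adjusted p = 0.224) without it. For Cacna1h and Cacna1c, leaving out that library brought the fold nearer to 0, and for Scn8a and Cacnb2 farther from it.

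Between the cocaine groups at 24 h, the genes with the lowest p were Cacnb1 (escalating over nonescalating, log2 fold −0.40 ± 0.15), Scn4b (0.33 ± 0.13), Scn8a (0.34 ± 0.14) and Cacna2d3 (0.29 ± 0.14), each with an edgeR adjusted p of 0.9995. Scn4b averaged 931.4 ± 117 CPM in escalating libraries (SD, n = 5) and 746.5 ± 122.4 CPM in nonescalating libraries (n = 9). Cacnb1 averaged 158.6 ± 18.97 CPM in escalating and 211 ± 39.4 CPM in nonescalating libraries. The ranges of both genes overlapped between the groups.

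**Figure D4:**
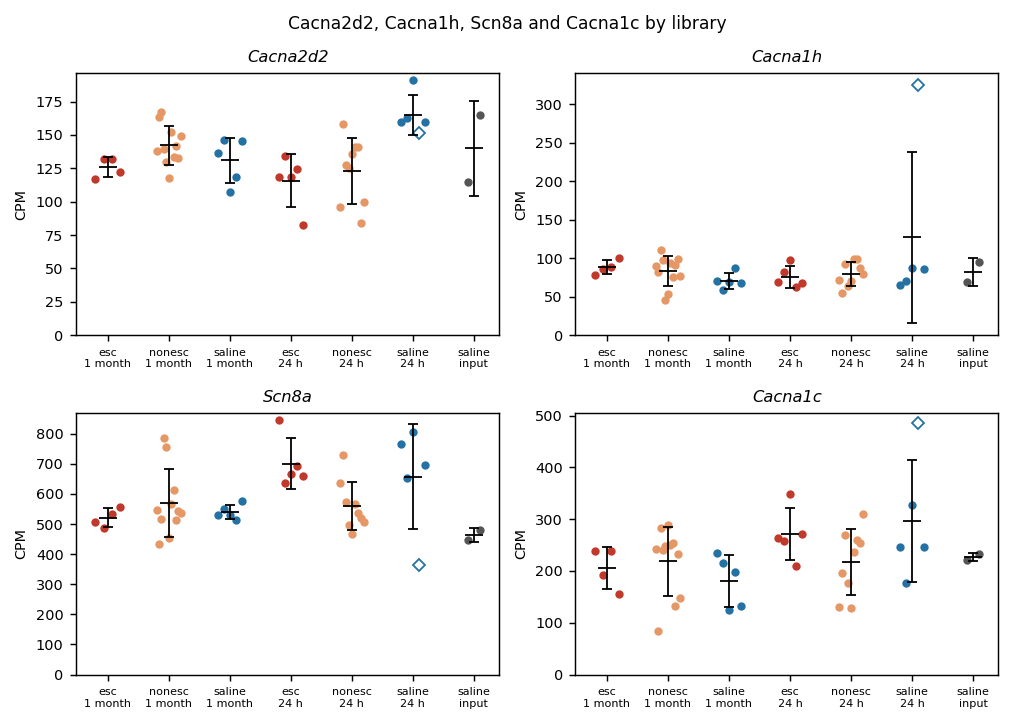
CPM of Cacna2d2, Cacna1h, Scn8a and Cacna1c in every library, by group (esc, escalating; nonesc, nonescalating), with the mean ± SD of each group. The open diamond marks saline replicate 5 at 24 h, at 324.8 CPM for Cacna1h and 363.2 CPM for Scn8a.

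Marker sums overlapped between the groups at 24 h. Those of D1 neurons were 1273 to 1555 CPM in escalating, 1040 to 1636 CPM in nonescalating and 1104 to 1478 CPM in saline libraries. Those of endothelial cells were 9.06 to 209, 16.2 to 453.9 and 4.38 to 1090 CPM in the same groups, and those of cortical neurons 21.4 to 171, 42.5 to 471.7 and 61.3 to 320.3 CPM. None of the 5, 4 and 6 genes of these lists was called in a comparison at 24 h. Their part in the results was not tested. None of the 36 partners tested was called against saline or between the cocaine groups. The lowest adjusted p was that of Nedd4l for all cocaine (−0.41 ± 0.13, edgeR adjusted p = 0.169), before Ank2, which encodes ankyrin-B (−0.50 ± 0.17, adjusted p = 0.193). Without saline replicate 5 these folds were −0.50 ± 0.13 for Nedd4l (adjusted p = 0.187) and −0.18 ± 0.13 for Ank2 (adjusted p = 0.65).

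At 1 month too, no channel gene passed the test between cocaine and saline. Again 0 of 26 genes were called in each of the 4 comparisons, with a background of 0% of 14488 genes in each, and DESeq2 called 0. At an unadjusted p under 0.05 there was 1 gene for escalating against saline and 0 in the others, where all genes gave 1.29% for escalating, 3.6% for nonescalating and 2.19% for all cocaine against saline, and 1.22% for escalating against nonescalating. The comparisons with saline share the same 5 saline libraries. Cacna2d2 had 117.3, 132.3, 132 and 122.5 CPM in escalating libraries, 117.8 to 167.5 CPM in nonescalating and 136.4, 146.5, 107.6, 118.8 and 145.2 CPM in saline libraries, all overlapping.

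**Figure D5:**
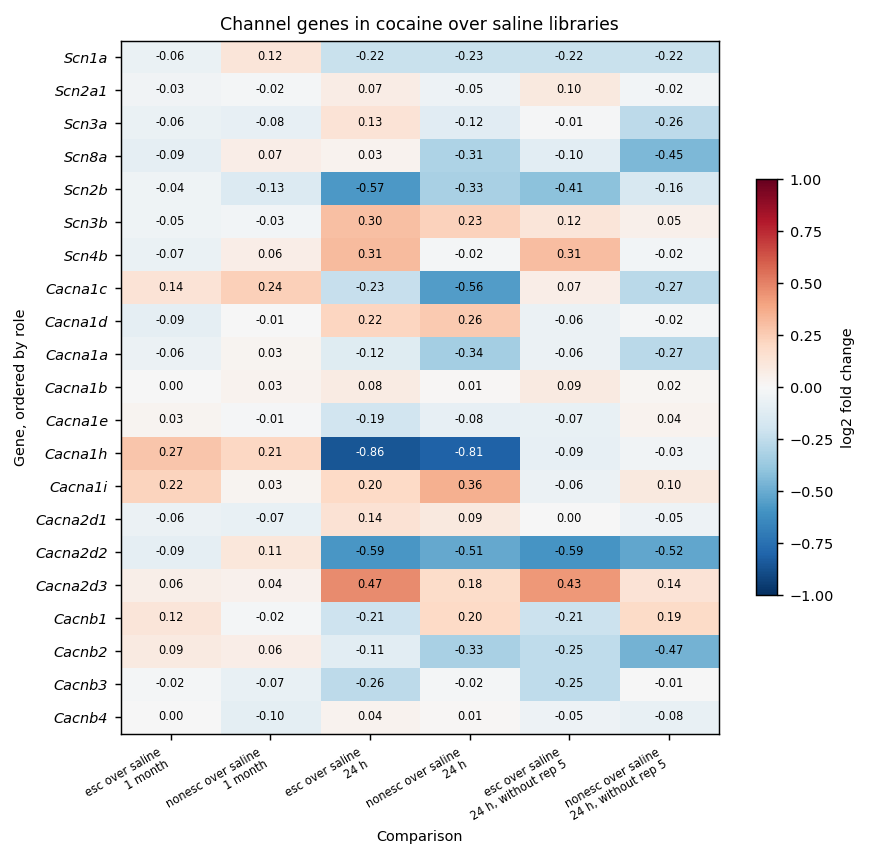
Log2 folds of escalating (esc) and nonescalating (nonesc) over saline libraries for 21 well-covered channel genes at 1 month, at 24 h and at 24 h without saline replicate 5, with genes in rows and red for higher. For escalating at 24 h, Cacna1h is −0.86 with that library and −0.09 without it, and Cacna2d2 is −0.59 in both columns.

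Time after self-administration was compared within each group. In saline libraries 0 of 27 genes were called between 1 month and 24 h (background 0.856% of 15190 genes, 0.244% higher and 0.612% lower), 5 had an unadjusted p under 0.05 (all genes 16.2%) and DESeq2 called 2, Cacna1c and Cacna1h. Over all 15190 genes DESeq2 called 628. The lowest p was that of Cacna1h, with 70.35, 58.79, 69.34, 87.44 and 68.13 CPM at 1 month against the 24 h values given above. Its log2 fold of −0.92 ± 0.28 (edgeR adjusted p = 0.0929) was −0.19 ± 0.20 (adjusted p = 0.734) without saline replicate 5, and it passed when saline replicate 1, 2 or 6 at 24 h was left out (−1.10, −1.08 and −1.03, adjusted p = 0.034, 0.0404 and 0.0486). Those fits without replicate 1, 2 or 6 called 260, 323 and 354 genes, of 15143, 15174 and 15159 tested. Cacna1c had 234.4, 215.8, 124.8, 198.8 and 131.7 CPM at 1 month, overlapping the values at 24 h (−0.78 ± 0.26, adjusted p = 0.114; −0.52 ± 0.25 without replicate 5). Cacna2d2 had 107.6 to 146.5 CPM at 1 month and 151.5 to 190.8 CPM at 24 h in saline libraries, with no overlap, and its log2 fold of −0.41 ± 0.15 (adjusted p = 0.144) was −0.43 ± 0.15 without replicate 5. Scn8a had a log2 fold of −0.35 ± 0.16 (adjusted p = 0.256), and −0.50 ± 0.14 (adjusted p = 0.0869) without it.

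Of the 38 partners tested between the times in saline, 0 rose and 2 fell, beside 0.856% of all 15190 genes called, 0.244% higher and 0.612% lower. Nedd4l had 1060 to 1360 CPM at 1 month and 1235 to 2076 CPM at 24 h (−0.62 ± 0.15, edgeR adjusted p = 0.0352). Ank2 had 334.8 to 459.2 CPM at 1 month and 426.8 to 1029 CPM at 24 h (−0.72 ± 0.18, adjusted p = 0.038). Saline replicate 5 was the lowest library at 24 h for Nedd4l and the highest for Ank2. Without it Nedd4l passed with −0.72 ± 0.14 (adjusted p = 0.0235), and Ank2 did not (−0.43 ± 0.15, adjusted p = 0.166), against 0.64% of all genes called.

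In the escalating group 0 of 27 genes were called between 1 month and 24 h (background 0%), 4 had an unadjusted p under 0.05 (all genes 5.52%), and DESeq2 called 0. All 4 were abundant genes. Scn4b had 687.9, 753.4, 668.3 and 612.8 CPM at 1 month against 1091, 769.8, 888.2, 964.1 and 943.9 CPM at 24 h (−0.50 ± 0.14, edgeR adjusted p = 0.895). Scn8a had 506.3, 487.4, 531.9 and 558.3 CPM at 1 month, below all its values at 24 h (−0.47 ± 0.17). Cacnb1 had 235.9, 240.2, 249.8 and 226.8 CPM at 1 month against 140.4, 177.5, 169, 135.9 and 170 CPM at 24 h (0.54 ± 0.18). All 4 genes, with Cacna2d3 at −0.33 ± 0.15, had an edgeR adjusted p of 0.895. In the nonescalating group 0 of 27 were called (background 0%) and 3 had an unadjusted p under 0.05 (all genes 2.67%, DESeq2 calls 0), namely Cacna2d4 (1.68 ± 0.55), Scn11a (−2.80 ± 1.03) and Cacna2d2 (0.23 ± 0.10), each with an adjusted p of 0.9997.

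None of the markers of other cells was called between the times in any group. In escalating libraries all 6 cortical neuron markers had positive log2 folds (median 0.95), with sums of 34.3 to 214 CPM at 1 month and 21.4 to 171 CPM at 24 h. All 6 oligodendrocyte markers had negative log2 folds (median −0.49), with sums of 125 to 210.4 CPM at 1 month and 110.1 to 361.9 CPM at 24 h. The 4 endothelial markers were all positive (median 1.21), with 50.7 to 350.4 CPM at 1 month and 9.06 to 209 CPM at 24 h. In saline libraries 5 of 6 cortical neuron markers (median −0.59) and 5 of 6 oligodendrocyte markers (median −0.90) were negative, with sums of 35.5 to 271.3 and 136.9 to 195.2 CPM at 1 month and of 61.3 to 320.3 and 94.8 to 512.9 CPM at 24 h. The highest sums at 24 h were those of saline replicate 5. Without it the oligodendrocyte sums at 24 h reached at most 123 CPM, below every saline library at 1 month. The cortical neuron sums then reached at most 135.1 CPM. In nonescalating libraries 5 of 6 astrocyte markers (median 0.55) and 4 of 4 endothelial markers (median 0.70) were positive. With all libraries the sums overlapped between the times in every case, and the part of these markers in the channel results was not tested.

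The change of the cocaine effect over time was tested as the cocaine difference from saline at 1 month minus that at 24 h. For escalating, 0 of 27 genes were called (background 0%), with 2 at an unadjusted p under 0.05 (all genes 7.32%) and 0 by DESeq2. For nonescalating 0 were called (background 0.00658%), with 5 at an unadjusted p under 0.05 (all genes 11.6%) and 1, Cacna2d2, by DESeq2. Over all 15190 genes DESeq2 called 2 for escalating and 73 for nonescalating. Cacna2d2 had a difference of 0.64 ± 0.18 on the log2 scale for nonescalating (edgeR adjusted p = 0.178, DESeq2 adjusted p = 0.0425) and of 0.49 ± 0.21 for escalating (adjusted p = 0.617). Without saline replicate 5 these were 0.65 ± 0.18 (adjusted p = 0.178) and 0.51 ± 0.21 (adjusted p = 0.727). Both differences contain the 24 h saline libraries, in which Cacna2d2 was higher than in saline at 1 month by the values given above. For Cacna1h the difference was 1.10 ± 0.41 for escalating (adjusted p = 0.545), and 0.37 ± 0.28 without saline replicate 5.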

How the data were processed

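RNA of 39 purified and 2 input libraries was measured. The authors deposited raw counts per gene, 1 table for each library. Reads were aligned to mm10 with STAR 2.0.0e and counted with HTSeq, per the submitters' processing notes. Neither the annotation nor the strand setting is given in the sources used. Reads from overlapping genes on opposite strands, which cover 18.9% of the exon bases of Cacna1s, 13.4% of Cacnb4 and 6.53% of Cacna1d therefore cannot be told apart. From the counts of 32531 named genes, 5 summary lines and 1 row named unknown with 0 counts were left out. CPM are counts per 1e+06 of these, and exon lengths and positions come from GENCODE M21 (GRCm38, the same build as mm10), which need not be the authors' annotation.

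Groups were taken from the labels. They were compared by edgeR 4.0.16 quasi-likelihood F tests (R 4.3.3, TMM, filterByExpr) with Benjamini-Hochberg adjustment over all genes tested and a threshold of 0.05, each time in 1 fit of its 3 groups, the times and the differences between them in 1 fit of the 6 purified groups, and purified against input RNA in saline libraries. DESeq2 1.42.0 was a second tool. SE come from the fit, SD from libraries. The scripts were tested on simulated data. Of 128 pairs of libraries within groups none looked like a duplicate (lowest chi-square per degree of freedom 8.45). The deviations of same-numbered libraries from their group means had r of −0.489 to 0.372 over 71 pairs, with r over 0.1 in 13 of them. Alternatives were other scaling, filters, a replicate block, the runs alone, each time alone and leaving out each library. Named are all channel genes called, or the up to 4 with the lowest p where none was, with a few others for comparison. A few genes that this would include are left out of the text and figures. The channel genes, roles, partner and marker lists were chosen with earlier results of these data known.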

Additional observations from a re-analysis of the deposited data

Results flagged for a closer look

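In each of 105 combinations of a well-covered channel gene and a purified group of 4 to 10 libraries, the highest or lowest library was compared with its nearest neighbour. In 10 of them, 9.52%, the gap took an unusually large part of the group's range, where chance gives about 1 in 20. The values below are CPM.

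Saline replicate 5 at 24 h gave 1 of these, with Cacna1h at 325, where the next library had 87.4. Replicate 4 of the first nonescalating run at 24 h gave 3, with Scn3a at 191, Scn2b at 900 and Cacnb3 at 219, each the highest of the nonescalating group. In the escalating libraries at 24 h, Scn8a was 846 in replicate 1 and Cacnb3 168 in replicate 5, both the highest. In the escalating libraries at 1 month, Scn3b was 113 in replicate 2, the lowest, and Cacna2d1 146 in replicate 3, the highest. In saline libraries, Cacna1i was 122 in replicate 4 at 1 month and Cacna2d2 191 in replicate 3 at 24 h, both the highest.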

How the results depend on the processing

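Of 14 comparisons, those whose count of channel genes called moved under an alternative are purified against input RNA, nonescalating and all cocaine against saline at 24 h, saline over time, and the difference of differences for nonescalating. The 4 calls of purified against input RNA became 2 with no filter on low counts and 0 with a replicate block. They became 0 with the 24 h libraries alone and 11 with the 1 month libraries alone. Leaving out saline replicate 5 at 24 h gave 10. Over all genes, 712 of 15305 were called as reported, 811 of 21148 with no filter and 156 of 15305 with the block. With 24 h alone 12 of 14576 were called, with 1 month alone 2951 of 15181, and without replicate 5 2302 of 15323. The labels do not back the replicate block, and same-numbered saline and input libraries had r of −0.017 to 0.02. With an input left out, the lone input is assumed to vary like the other libraries. At 24 h the fit of all 6 purified groups called 1 gene for nonescalating and 2 for all cocaine, and DESeq2 called 1 for all cocaine. Over all genes these counts were 256, 479 and 171. For saline over time DESeq2 called 2, and leaving out each library gave 0 to 1. For the difference of differences in nonescalating DESeq2 called 1. The replicate block changed no other count. Among 56 values of single genes, 1 direction turned: Scn2b for nonescalating against saline at 1 month was −0.13 with both runs and 0.0017 with the second run alone, where the cause was not tested. Outside these values, leaving out saline replicate 5 turned the sign of 7 of 24 channel genes for escalating and 5 of 24 for nonescalating against saline at 24 h (Cacna1c for escalating −0.23 with it and 0.07 without), none with an adjusted p below 0.8. Over the 56 values and 840 alternatives, 803 kept their direction and their side of the threshold, 26 lost the call, 10 gained it and 1 turned. Fits of the partner genes without that library or an input were chosen after seeing the data. DESeq2's size factors moved the median of all genes by at most 0.07 on the log2 scale. Depth limits the 10 genes with a mean of at most 3.24 CPM.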
